A study of Mus musculus with 9 samples.

Results

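The genes described are the subunits of the nuclear RNA polymerases I, II and III and Polrmt, the RNA polymerase of mitochondria. They were taken from the count table as the protein-coding genes whose symbol begins with Polr1, Polr2 or Polr3 and a letter, together with Polrmt, which gave 29 of 52550 gene rows. They were chosen by symbol, and no count entered the rule, but the family was picked with earlier results of the same comparison in view, so its values are read beside those of all genes and counts of members carry no test. A further row, Polr2k-ps, is a pseudogene and was left out. Messenger RNA had been profiled in mouse embryonic stem cells of V6.5, a hybrid line, with a kit that reads the 3' ends of polyadenylated transcripts. There were 5 libraries whose genotype label is KLF2/KLF4 DKO (called DKO here, for loss of the transcription factors KLF2 and KLF4) and 4 labelled wildtype (WT). All 9 came from cells in medium with 15% FBS, LIF and a pair of inhibitors, of GSK and of MEK (2i), a medium known for maintaining naive pluripotency. Age does not apply to a cell line, and how the alleles were made, how many clones were used and whether replicates were separate cultures was not given in the sources used here, so the p-values measure the spread between these libraries only, which may be technical.

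RNA polymerase I makes the precursor of the large ribosomal RNAs, polymerase II makes messenger RNAs and many small nuclear RNAs, and polymerase III makes transfer RNAs, the smallest ribosomal RNA and other short transcripts. Each is built around a pair of large catalytic subunits, sits on an assembly platform made of a small heterodimer, and carries a stalk and peripheral subunits that act in initiation, RNA cleavage and termination. Some small subunits are common to all of them, and Polr1c and Polr1d form the platform of both polymerase I and polymerase III. Pluripotent cells are known for high Polr3g, whose paralogue Polr3gl is the more usual form of that subunit in differentiated cells.

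Total counts ran from 6035642 to 6617834 in the libraries labelled DKO and from 6557408 to 7098530 in WT, and a floor of 3 counts corresponded to 0.453 to 0.497 and 0.423 to 0.457 CPM (counts scaled to the size of the library). All 8 embryonic stem cell markers examined, Pou5f1 and Nanog among them, stood at 10 CPM or more in every library, with a sum of 2600 to 2745 CPM in the libraries labelled DKO and 2031 to 2170 CPM in WT. Single markers differed in direction: Tdgf1 averaged 168 CPM in the libraries labelled DKO and 295 CPM in WT, and the means of Pou5f1 and Zfp42 were also lower, while those of the other 5 were higher. Of 8 differentiated lineage markers only Sox1 stood at 10 CPM or more in every library (means 16.8 and 15.4 CPM), and the sum was 14.6 to 26.3 and 16.2 to 22.0 CPM. Of 8 fibroblast or feeder markers, 5 stayed under 1 CPM in every library and Col6a1 was at 0, and the sum was 1.15 to 3.78 and 2.48 to 4.79 CPM. The knockout label could not be checked by the targeted genes. Klf2 had 3970, 3822, 3750, 3750 and 4044 counts in DKO 1 to 5, against 3042, 3064, 3048 and 3297 in WT 1 to 4, and Klf4 had 9385, 10210, 10778, 9937 and 9722, against 5860, 5085, 5873 and 6183. Both were thus higher in the libraries labelled DKO (log2 fold changes 0.42 ± 0.04 and 0.91 ± 0.06, SE, edgeR adjusted p = 6.21e-10 and 8.64e-14). The deleted part of each gene was not given, and 3' reads outside a deleted part check nothing, so these counts cannot decide on the label. All directions below therefore follow the labels, DKO over WT.

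All 29 genes had enough reads to be tested. Those that changed mostly fell, by small amounts. In the libraries labelled DKO 11 members fell, 1 rose (Polr1c) and 17 did not pass, at an adjusted p under 0.05 in edgeR's quasi-likelihood test over 11893 genes. Among the falls were Polr1a and Polr1b of polymerase I, Polr2a and Polr2c of polymerase II, Polr3b, Polr3d, Polr3g, Polr3gl and Polr3k of polymerase III, and the common subunit Polr2e. Among all tested genes 24.0% fell, 23.9% rose and 47.8% passed in either direction, so that 37.9% of the members fell, 3.45% rose and 41.4% passed. The libraries of the groups did not overlap for 9 members, or 31.0%, against 37.4% of all tested genes. The median log2 fold change of the members was -0.14, beside 0.01 over all tested genes, and the median size of the change was 0.17, beside 0.26. Only 3 members passed with a log2 fold change of at least 0.5 in size, Polr3gl (-1.60), Polr3g (-0.72) and Polr2c (-0.72), where 24.2% of all tested genes did. In bulk RNA, fewer cells that express a gene and less RNA per cell cannot be told apart.

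**Figure D1:**
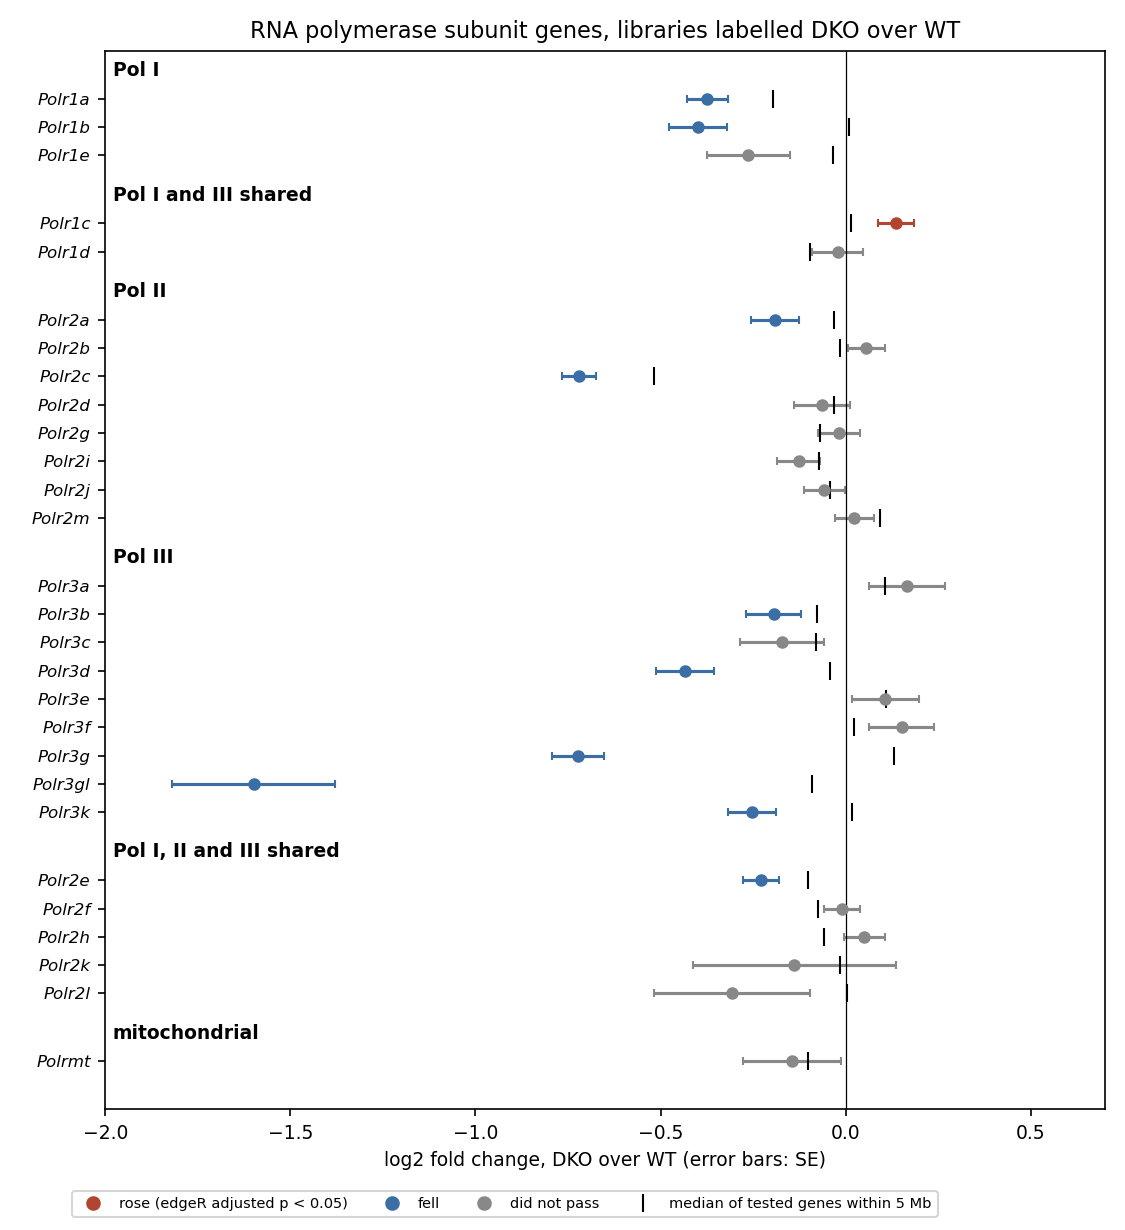
Log2 fold change of the subunit genes named in the text, in the libraries labelled DKO (n = 5) over WT (n = 4), ordered by polymerase, with SE bars. Black ticks mark the median of tested genes within 5 Mb. Most points lie between -0.4 and 0.2, and Polr3gl, at -1.60, lies farthest from 0.

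Precision was similar in both groups for the better expressed members. For the 26 genes with a mean of at least 10 CPM, the coefficient of variation between libraries had a median of 6.45% in the libraries labelled DKO (3.30 to 13.6%) and 6.20% in WT (1.86 to 16.4%). The other 3 genes, Polr2k, Polr2l and Polr3gl, had 11 to 59 counts per library and varied more, with coefficients of 33.7, 30.5 and 37.1% in the libraries labelled DKO, against 35.9, 16.9 and 6.31% in WT. A few 3' ends share exon bases with a gene on the other strand: of the last 500 bases, Polr2j shares 176 with Lrwd1 and Polr2b 85 with Igfbp7. The strand setting of the counting was not given in the sources used here, so reads of these pairs may be shared.

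Both forms of a polymerase III subunit that comes in alternative versions fell. Polr3g and Polr3gl encode paralogues that occupy the same place in a trimer with the products of Polr3c and Polr3f, through which polymerase III meets its initiation factors. Polr3g (ENSMUSG00000035834, mm10 chromosome 13, 81673843 to 81711013, minus strand) stood at 63.7, 64.4, 81.2, 67.7 and 64.9 CPM in DKO 1 to 5, against 116, 115, 102 and 118 CPM in WT 1 to 4. No library labelled DKO reached the lowest WT library, and DKO 3 was the highest of its group. The mean was 68.4 ± 7.35 CPM in the libraries labelled DKO and 112.8 ± 7.40 CPM in WT (SD, n = 5 and 4), with a log2 difference of -0.72 ± 0.07 (SE) and an edgeR adjusted p of 1e-10. Polr3gl (ENSMUSG00000028104, chromosome 3, 96577872 to 96594181, minus strand) gave 11, 18, 26, 12 and 18 reads in DKO 1 to 5, against 53, 57, 59 and 54 in WT 1 to 4. That was 2.72 ± 1.01 CPM in the libraries labelled DKO and 8.24 ± 0.52 CPM in WT, with a log2 difference of -1.60 ± 0.22 (SE) and an edgeR adjusted p of 2.25e-07. Its groups were also apart, with 4.27 CPM in DKO 3 and 7.67 CPM in WT 4 as the nearest values. Both calls held in all 15 alternative fits, with log2 fold changes of -0.79 to -0.70 for Polr3g and -1.81 to -1.46 for Polr3gl. Tested genes within 5 Mb of each had medians of 0.13 and -0.09.

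Polr3g was the main form in every library. Polr3gl held 2.52, 4.20, 4.99, 2.91 and 4.18% of the counts of the pair in DKO 1 to 5, against 6.41, 7.01, 7.85 and 6.09% in WT 1 to 4. All 5 libraries labelled DKO were below all WT libraries, with means of 3.76% ± 1.02 and 6.84% ± 0.77 (SD). The exact 95% binomial interval (Clopper-Pearson) of DKO 1, 1.26 to 4.46%, overlapped that of no WT library, and that of DKO 4, 1.51 to 5.02%, overlapped those of WT 1 and WT 4 only, which began at 4.84 and 4.61%. The intervals of DKO 2, DKO 3 and DKO 5 reached up to 6.55, 7.23 and 6.52% and overlapped those of all WT libraries. These intervals cover counting error only. Both genes were counted near their 3' ends, where each transcript gives about the same number of reads whatever its length, and the share is a description with no test.

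**Figure D2:**
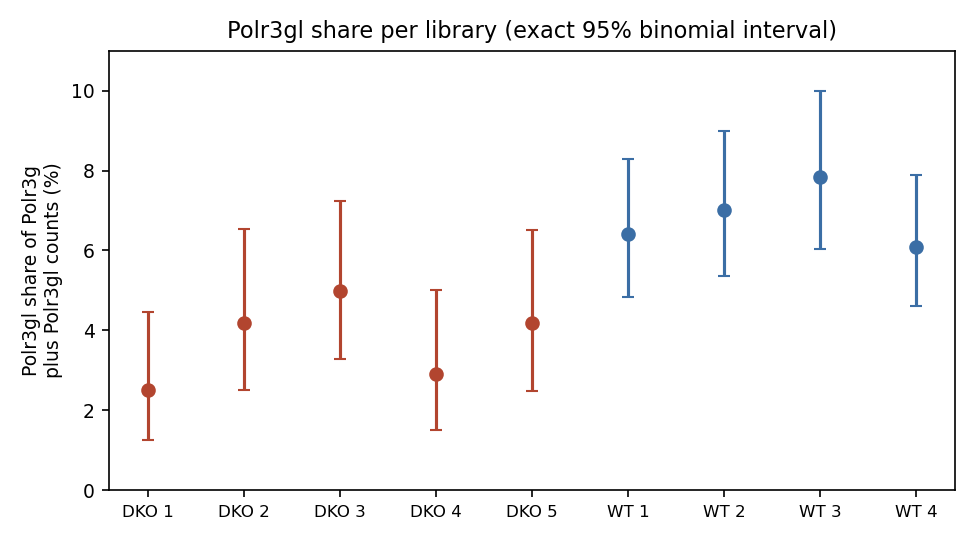
Share of Polr3gl in the counts of Polr3g plus Polr3gl, in percent, for each library, with exact 95% binomial intervals. The 5 libraries labelled DKO lie at 2.52 to 4.99% and the 4 WT libraries at 6.09 to 7.85%.

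The promoter windows of the 3 members with the largest falls are shown because KLF proteins are known to bind CACCC and related GC-rich boxes. They run from 250 bases before to 50 after the start site, on the strand of the gene (RefSeq, GRCm38.p6). Polr3g is at chr13:81710964-81711263 and Polr3gl at chr3:96594132-96594431, both on the minus strand, and Polr2c at chr8:94857200-94857499 on the plus strand. Capitals mark the CACCC box, the GC box GGGCGG and the TATA box letters TATAAA, each searched on both strands; the motifs share no letters in these windows.
Polr3g: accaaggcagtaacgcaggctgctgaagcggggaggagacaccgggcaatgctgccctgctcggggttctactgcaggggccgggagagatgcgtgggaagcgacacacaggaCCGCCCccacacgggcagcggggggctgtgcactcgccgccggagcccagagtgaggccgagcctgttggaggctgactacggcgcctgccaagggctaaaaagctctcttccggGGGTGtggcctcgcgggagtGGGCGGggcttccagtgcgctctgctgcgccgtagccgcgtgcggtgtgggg
Polr3gl: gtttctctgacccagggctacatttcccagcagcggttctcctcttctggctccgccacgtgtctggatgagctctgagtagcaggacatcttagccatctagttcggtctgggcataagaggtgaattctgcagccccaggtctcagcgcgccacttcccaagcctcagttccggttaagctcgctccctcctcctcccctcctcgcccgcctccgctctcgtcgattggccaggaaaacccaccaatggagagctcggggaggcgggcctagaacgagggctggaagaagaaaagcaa
Polr2c: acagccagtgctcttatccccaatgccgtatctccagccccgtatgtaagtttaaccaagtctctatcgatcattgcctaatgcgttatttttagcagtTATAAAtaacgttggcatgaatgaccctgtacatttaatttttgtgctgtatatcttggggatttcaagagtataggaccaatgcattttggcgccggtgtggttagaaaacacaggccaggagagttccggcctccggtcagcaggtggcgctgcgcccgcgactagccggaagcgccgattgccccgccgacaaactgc

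The Polr3g window held a CACCC match on the opposite strand, beginning 22 bases before the start site (position -22), and GGGCGG matches at -137 on the opposite strand and at -2. The Polr3gl window held none of these letters, and the Polr2c window only a TATAAA at -151. Of the 29 members 23 had a window in the table, with 25 windows in all, of which 13 (52.0%) held CACCC, 15 (60.0%) GGGCGG and 3 (12.0%) TATAAA. Among all 32851 windows the shares were 57.5, 35.7 and 13.6%. Of the 9 windows of members that fell, 6 held CACCC (66.7%), and of the 15 of members that did not pass, 7 did (46.7%). GGGCGG went the other way, with 4 of 9 windows (44.4%) and 10 of 15 (66.7%), and TATAAA was in 2 of 9 (22.2%) and 1 of 15 (6.67%). GC content had a median of 59.3% in the members' windows and 52.7% in all windows. A match describes the letters only and is not a binding site.

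The rest of polymerase III changed less, and unevenly. Of the large catalytic subunits only Polr3b passed, and not in every alternative fit. Polr3a, the largest, had 35.3, 33.2, 28.1, 33.2 and 32.5 CPM in DKO 1 to 5, against 33.4, 31.0, 22.3 and 29.3 CPM in WT 1 to 4, and did not pass (log2 fold change 0.17 ± 0.10, edgeR adjusted p = 0.184). Its groups overlapped, and both held their lowest value in replicate 3. Polr3b, the second largest, had 56.7, 53.3, 54.5, 51.6 and 52.1 CPM in DKO 1 to 5, against 69.1, 59.3, 62.7 and 54.5 CPM in WT 1 to 4. Its fall of -0.19 ± 0.07 (edgeR adjusted p = 0.0293) passed although the groups overlapped. It did not pass with DESeq2 (adjusted p = 0.0513), without DKO 4 (0.0627), DKO 5 (0.0562) or WT 3 (0.0639), or without WT 1, where the log2 fold change was -0.14 (0.165).

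Polr3d and Polr3e form the dimer of polymerase III that resembles the polymerase II factor TFIIF and acts in initiation and termination. Polr3d fell to 42.8 ± 4.50 CPM in the libraries labelled DKO, against 57.9 ± 1.98 CPM in WT (log2 fold change -0.43 ± 0.08, edgeR adjusted p = 2.1e-05), and its groups did not overlap. Its partner Polr3e, did not pass (0.11 ± 0.09 on the log2 scale, edgeR adjusted p = 0.338). Polr3k, needed for RNA cleavage and termination, fell to 68.7 ± 3.17 CPM, against 81.9 ± 5.06 CPM in WT, again without overlap (log2 fold change -0.25, edgeR adjusted p = 0.00164). Crcp, a polymerase III subunit which the symbol rule does not take, was at 8.21 ± 0.81 CPM in the libraries labelled DKO and 10.3 ± 1.09 CPM in WT and did not pass (-0.33, edgeR adjusted p = 0.0787). The trimer members Polr3c (-0.17) and Polr3f (0.15) did not pass, with 95% intervals of -0.39 to 0.05 and -0.02 to 0.32 for their log2 fold changes. In all 6 of the 10 polymerase III genes (60.0%) fell and none rose, with a median of -0.19, and the other 4 did not pass. Among all tested genes 24.0% fell and 23.9% rose, and the count of 10 genes was not tested against these shares.

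**Figure D3:**
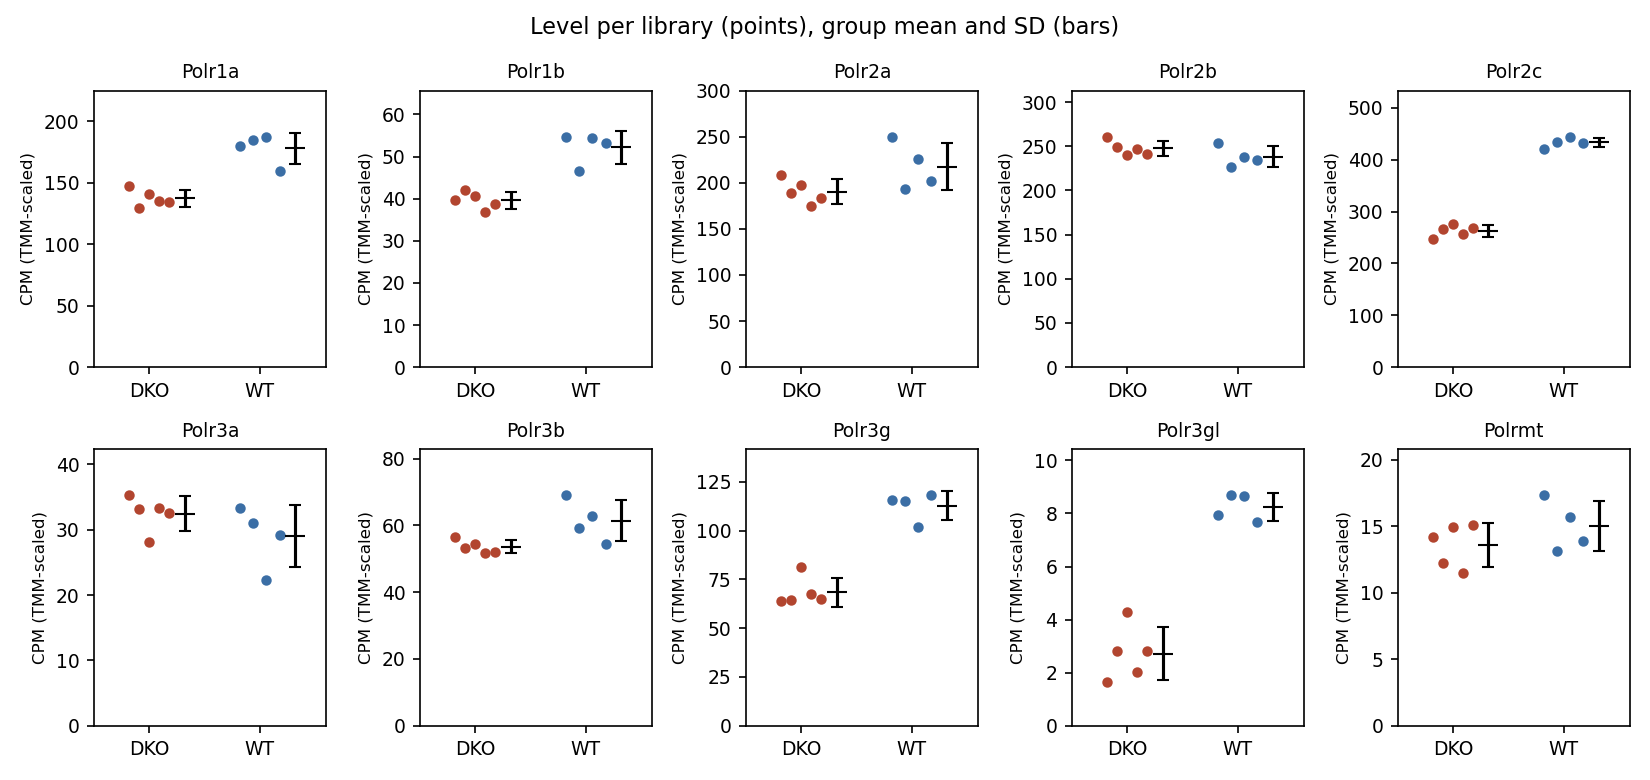
Level of 10 members in each library as CPM on TMM-scaled library sizes, from 0, with the libraries labelled DKO left of WT and the group mean and SD beside the points. Polr1a, Polr1b, Polr2c, Polr3g and Polr3gl do not overlap between the groups, while Polr2a, Polr2b, Polr3a, Polr3b and Polrmt do.

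Both catalytic subunits of polymerase I fell. Polr1a, the largest (ENSMUSG00000049553, chromosome 6, 71909053 to 71984935, plus strand), had 147, 129.6, 141, 135 and 134 CPM in DKO 1 to 5, against 180.1, 184, 187 and 159 CPM in WT 1 to 4. Polr1b, the second largest (ENSMUSG00000027395, chromosome 2, 129100995 to 129126594, plus strand), had 39.8, 42.2, 40.5, 36.8 and 38.6 CPM, against 54.7, 46.5, 54.4 and 53.3 CPM. For both genes every library labelled DKO was below every WT library. The log2 fold changes were -0.37 ± 0.06 and -0.40 ± 0.08 (SE, edgeR adjusted p = 1.17e-06 and 6.36e-05), and both calls held in all 15 alternative fits. Tested genes within 5 Mb had a median of -0.20 around Polr1a and 0.01 around Polr1b. The part of that regional shift in the Polr1a value was not tested.

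The peripheral subunits of polymerase I had smaller estimates, and differences between subunits were not tested. Polr1e and Cd3eap (now also named Polr1g) form its TFIIF-like dimer. Polr1e was at 18.8 ± 2.55 CPM in the libraries labelled DKO and 22.7 ± 1.73 CPM in WT and just missed the threshold (log2 fold change -0.26 ± 0.11, edgeR adjusted p = 0.0523). It passed in 6 of 15 alternative fits, among them without DKO 1 (0.0223), DKO 2 (0.0323) and WT 3 (0.0327). Cd3eap fell to 141 ± 11.4 CPM, against 159.96 ± 7.24 CPM in WT (-0.19, edgeR adjusted p = 0.00852). Twistnb (Polr1f), of the stalk, and Znrd1 (Polr1h), a cleavage subunit, did not pass, with log2 fold changes of -0.02 and 0.07. Cd3eap, Twistnb, Znrd1 and Crcp carry symbols outside the rule, came from a companion list and are not counted among the 29, and Znrd1 was picked after its value was seen.

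The platform dimer shared by polymerases I and III did not fall with the catalytic subunits of polymerase I. Polr1c was the only member that rose, to 268 ± 9.67 CPM in the libraries labelled DKO, against 244 ± 4.52 CPM in WT. The groups did not overlap, with 259 CPM in DKO 2 and 248 CPM in WT 1 as the nearest values. Its log2 fold change was 0.14 ± 0.05 (edgeR adjusted p = 0.0181), and the call was lost without DKO 5 (0.0628), WT 2 (0.0536) or WT 4 (0.063). Polr1d, its partner, was at 91.8 ± 8.26 and 93.2 ± 7.46 CPM and did not pass (-0.02, 95% interval -0.16 to 0.11).

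In polymerase II the fall lay mainly in Polr2c, which forms the platform dimer with the product of Polr2j. Polr2c (ENSMUSG00000031783, chromosome 8, 94857450 to 94873535, plus strand) had 247, 267, 277, 257 and 268 CPM in DKO 1 to 5, against 421, 435, 445 and 433 CPM in WT 1 to 4. The groups were far apart, and the spread within each was small. The log2 fold change was -0.72 ± 0.05 (SE, edgeR adjusted p = 4.53e-15), and it lay between -0.74 and -0.70 in the 15 alternative fits. Polr2j was at 110.4 ± 3.64 CPM in the libraries labelled DKO and 115 ± 4.13 CPM in WT and did not pass (-0.06, edgeR adjusted p = 0.421).

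Polr2c lies in a long stretch of chromosome 8 where most tested genes were lower in the libraries labelled DKO. The stretch ran from near Klf2, at -22.5 Mb from Polr2c, to the last tested gene, at 34.4 Mb. Before it, most tested genes of the chromosome were higher. Of the 43 tested genes within 5 Mb of Polr2c, 33 had a log2 fold change below 0, 25 fell and 5 rose. Their median was -0.52, with quartiles of -0.79 and -0.09, and it was -0.60 within 2 Mb. Polr2c was 0.20 below the median within 5 Mb on the log2 scale, and 15 of the 43 neighbours were lower still. The part of the regional shift in the Polr2c value was not tested. Around the 27 members off chromosomes 6 and 8, the medians ran from -0.10 to 0.13. Of those 27 members 9 fell and 1 rose, beside 24.0% and 23.9% of the tested genes on all chromosomes. The share among tested genes off chromosomes 6 and 8 was not taken.

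**Figure D4:**
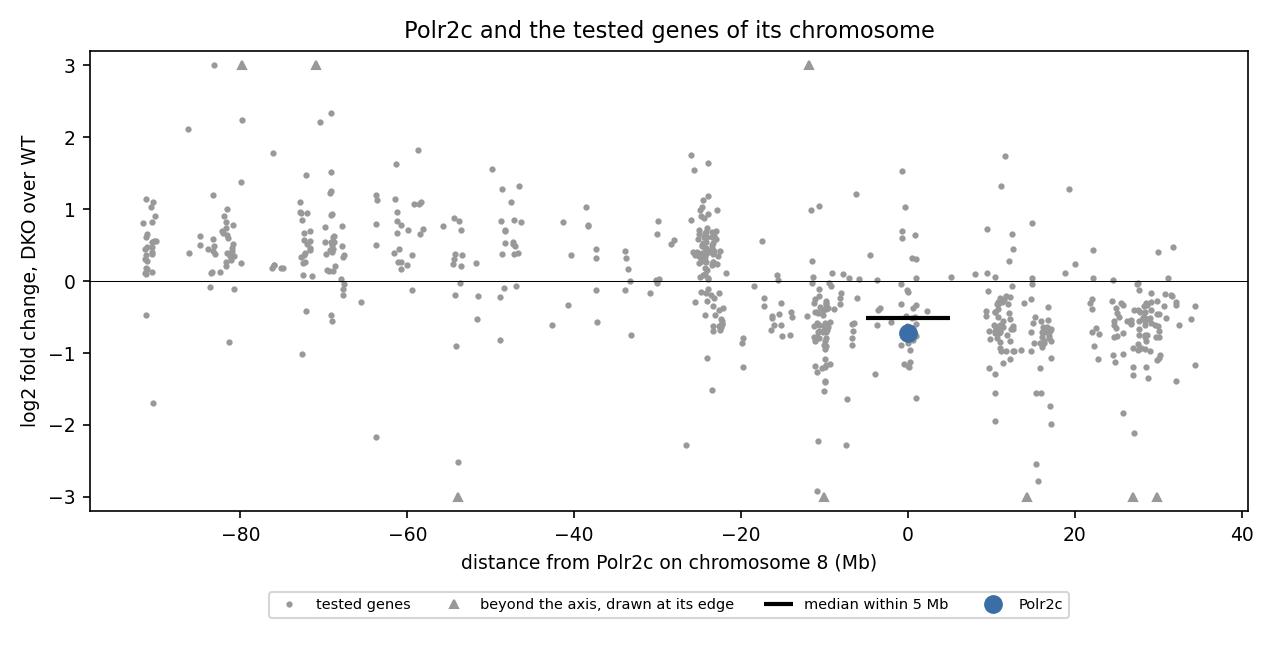
Log2 fold change, DKO over WT, of Polr2c and every other tested gene of chromosome 8, by distance from Polr2c in Mb. The black line is the median of the 43 tested genes within 5 Mb, -0.52, and Polr2c is at -0.72. Triangles stand for genes beyond 3 in size.

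Among the other polymerase II subunits Polr2a alone passed, and not in every alternative fit. Polr2a encodes the largest subunit, whose C-terminal tail of repeated residues is phosphorylated during the transcription cycle. It had 209, 189, 198, 174 and 183 CPM in DKO 1 to 5, against 250.1, 193, 226 and 202 CPM in WT 1 to 4, so that the groups overlapped. Its fall of -0.19 ± 0.06 on the log2 scale passed (edgeR adjusted p = 0.0161), but not without WT 1 (-0.12, adjusted p = 0.121) or WT 3 (-0.18, adjusted p = 0.0535). Polr2b, the second largest, had 261, 249.6, 239.95, 247 and 241 CPM, against 254, 227, 238 and 234 CPM, and did not pass (0.06 ± 0.05, edgeR adjusted p = 0.365). The stalk genes Polr2d (-0.06) and Polr2g (-0.02), the cleavage and fidelity subunit Polr2i (-0.13) and Polr2m (0.02), whose product associates with polymerase II and limits its engagement with initiation factors, did not pass. Polr2i passed without DKO 1 (-0.16, edgeR adjusted p = 0.0273). Of the 8 polymerase II genes 2 fell and none rose, with a median of -0.06.

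Of the 5 subunits common to all 3 nuclear polymerases, Polr2e alone passed (20.0%, beside 47.8% of all tested genes). It fell to 306 ± 11.6 CPM in the libraries labelled DKO, against 358 ± 23.5 CPM in WT, with no overlap (log2 fold change -0.23 ± 0.05, edgeR adjusted p = 0.000245), and the call held in all 15 alternative fits. Polr2f (-0.01, 95% interval -0.11 to 0.09) and Polr2h (0.05, -0.06 to 0.16) did not pass. Polr2k and Polr2l encode very small zinc-binding subunits and gave few reads, with 3.62 ± 1.22 and 5.41 ± 1.65 CPM in the libraries labelled DKO, against 4.0 ± 1.43 and 6.70 ± 1.13 CPM in WT. Their log2 fold changes of -0.14 ± 0.27 and -0.31 ± 0.21 did not pass, and differences of this size were not detectable at this depth.

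Polrmt, which transcribes the mitochondrial genome, had 14.2, 12.2, 14.9, 11.5 and 15.1 CPM in DKO 1 to 5, against 17.4, 13.1, 15.7 and 13.9 CPM in WT 1 to 4. The groups overlapped and the gene did not pass (log2 fold change -0.14 ± 0.13, edgeR adjusted p = 0.387). The share of counts on mitochondrial transcripts was 1.77 to 2.41% in the libraries labelled DKO and 1.30 to 1.54% in WT. A relation between these values was not tested.

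The sums over genes were lower in the libraries labelled DKO for all 3 nuclear polymerases. The 3 genes of polymerase I added up to 196 ± 8.15 CPM in the libraries labelled DKO and 253 ± 10.9 CPM in WT, a ratio of 0.774. The 10 genes of polymerase III added up to 442 ± 15.7 and 531 ± 16.9 CPM (0.833), and the 8 of polymerase II to 1456 ± 35.9 and 1659 ± 40.9 CPM (0.877). These 3 sums did not overlap between the groups. Those of the platform dimer of polymerases I and III did not overlap either and were higher in the libraries labelled DKO, at 359 ± 16.3 and 337 ± 6.12 CPM (1.07). The common subunits overlapped, at 793 ± 28.7 and 843 ± 37.9 CPM (0.94). The order of these ratios depends on which genes are summed. With Cd3eap, Twistnb and Znrd1 added, polymerase I came to 498 ± 12.4 and 572 ± 14.9 CPM (0.871), above the ratio of polymerase III, which was 0.832 with Crcp added. Single genes weigh heavily too. Without Polr1a, polymerase I came to 58.4 ± 4.13 and 74.9 ± 3.84 CPM, still without overlap (0.78). Without Polr2c, polymerase II came to 1193 ± 42.7 and 1226 ± 49.6 CPM with overlapping groups (0.973), and without Polr3g polymerase III came to 374 ± 13.3 and 418 ± 15.2 CPM, again without overlap (0.894). These added and omitted genes were picked after the values were seen. Differences between the polymerases were not tested.

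**Figure D5:**
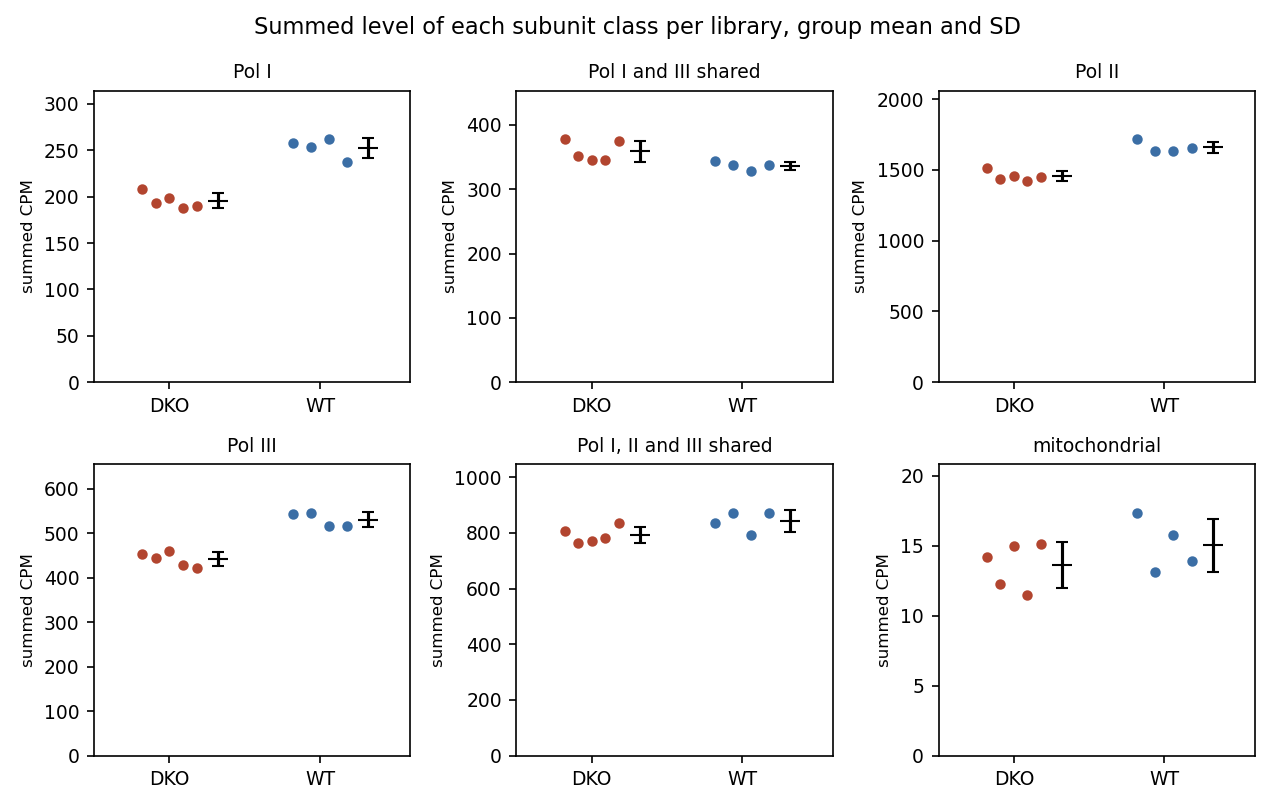
Summed CPM of the subunit genes of each class per library, from 0, with the libraries labelled DKO left of WT and group means with SD. The sums of polymerases I, II and III are lower in all libraries labelled DKO than in all WT libraries, and those of the common subunits and of Polrmt overlap.

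Factors that work with the polymerases went both ways. Of 101 tested genes of the companion lists 17 rose and 25 fell, with a median log2 fold change of -0.04. Over all tested genes 23.9% rose and 24.0% fell, so the falls were near that share and the rises below it. The single lists are short, and their counts were not tested against these shares. Among the 10 polymerase I factors 2 rose and 4 fell (median -0.09). Ddx21, a helicase of the nucleolus, fell to 617 ± 28.7 CPM in the libraries labelled DKO, against 770.2 ± 22.8 CPM in WT (-0.32, edgeR adjusted p = 2.35e-07). Taf1c, of the promoter selectivity complex, fell by 0.77 on the log2 scale, but lies on chromosome 8 among genes with a median of -0.59. Taf1d, of the same complex, rose (0.36, edgeR adjusted p = 2.16e-06), as did the termination factor Ttf1 (0.23), while Rrn3, the initiation factor that links the enzyme to its promoter, and the nucleolar protein Nolc1 fell (-0.30 and -0.19). Ubtf, which binds the ribosomal gene promoter, did not pass at 523 ± 11 and 520.2 ± 20.7 CPM. Ttf1, Rrn3 and Nolc1 were picked after their values were seen.

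Of 18 general factors of polymerase II 2 rose and 6 fell (median -0.11). The TFIIH subunits Gtf2h1 (-0.30, edgeR adjusted p = 4.85e-06) and Mnat1 (-0.26) fell. Gtf2e2, of TFIIE, rose (0.27), on chromosome 8 among genes with a median of 0.72, and Gtf2a1, of TFIIA, also rose (0.20), named after its value was seen. Ercc3, a TFIIH helicase, did not pass (-0.11). Of 25 pausing and elongation genes 4 rose and 8 fell (median -0.07). Tcea3, a paralogue of the cleavage-stimulating elongation factor TFIIS, rose to 75.2 ± 7.70 CPM in the libraries labelled DKO, against 46.6 ± 3.66 CPM in WT (0.69, edgeR adjusted p = 4.14e-09). The FACT subunit Ssrp1 (-0.19) and the PAF complex member Cdc73 (-0.20) fell, while Supt16, the other FACT subunit, did not pass (-0.07). The other rises, Ell (0.28, on chromosome 8 among genes with a median of 0.37), Ctr9 (0.19) and Ccnt2 (0.16), were picked after their values were seen. The rises numbered 2 with DESeq2, and also without WT 1 or without WT 4.

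Of 18 polymerase III factors 3 rose and 1 fell (median 0.06), where 23.9% of all tested genes rose and 24.0% fell. A difference from the polymerase III subunit genes was not tested. Snapc2 and Snapc4, of the complex that binds promoters of small nuclear RNA genes, rose (0.54 and 0.44), as did the TFIIIB subunit Brf2 (0.34). Snapc2 and Brf2 lie on chromosome 8 among genes with medians of 0.44 and 0.49. Gtf3a, the factor for the smallest ribosomal RNA gene, fell (-0.19, edgeR adjusted p = 0.0212) and was named after its value was seen. The number of falls was 0 without DKO 1 or WT 3 and 2 in 10 of the 15 alternative fits. Ssb, which binds the ends of new polymerase III transcripts, did not pass (-0.12, edgeR adjusted p = 0.0704), but passed without the low-count filter (0.0423) and without DKO 2 (0.0456), DKO 3 (0.0144) or WT 4 (0.0194).

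Of 18 genes for polymerase assembly and for phosphatases of the polymerase II tail 2 rose and 5 fell (median 0.00). Uri1, an assembly chaperone, fell (-0.37, edgeR adjusted p = 2.34e-06), and the small phosphatase gene Ctdspl fell to 3.38 ± 0.87 CPM in the libraries labelled DKO, against 8.51 ± 2.13 CPM in WT. Its relative Ctdsp2 rose (0.35), as did Ruvbl1 (0.22), an ATPase of the assembly chaperone, named after its value was seen. The other falls, Ssu72 (-0.24), Pih1d1 (-0.21) and Rpap1 (-0.14), were picked in the same way, and without DKO 2 the falls numbered 3. Without WT 1 there was 1 rise. Gpn1, a GTPase for polymerase II import, did not pass (-0.11, edgeR adjusted p = 0.157), and passed without WT 4 (0.0383). Of 10 mitochondrial transcription genes 4 rose and none fell (median 0.17). Tefm, the elongation factor of Polrmt, rose (0.46, edgeR adjusted p = 0.00143), with Mterf1a (0.65) and Mterf1b (0.67), close copies whose counts are uncertain, the second named after its value was seen. Tfb1m (0.40, edgeR adjusted p = 0.0249) rose too, a call lost with DESeq2 (0.062), with the replicate block (0.0668) and without DKO 1 (0.0706), DKO 5 (0.0654), WT 1 (0.111) or WT 2 (0.0604). Tfam, which packages mitochondrial DNA, was the most abundant that did not pass (-0.08). The rises numbered 2 with DESeq2, without WT 1 and without WT 2.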

How the data were processed

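The deposited table holds raw counts of exon reads, whole numbers with no normalization by the authors, in 9 libraries. The RNA (600 ng, Trizol) entered a Lexogen QuantSeq 3' forward kit, per the labels' protocols. The submitters' processing notes name mm10 and cutadapt, STAR, featureCounts and DESeq2 without saying how each was used. Annotation release, strand setting and treatment of multi-mapped reads were not given in the sources used here.

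Of 52550 identifiers 52403 matched GENCODE mouse release M21 on the same build, the source of symbols and positions. Genes kept by filterByExpr were scaled by TMM and tested with the robust quasi-likelihood test of edgeR 4.0.16 (R 4.3.3) on all 9 libraries, with genotype as the only term and Benjamini-Hochberg (BH) adjustment over all genes tested. An adjusted p under 0.05 counts as passing. The SE is the size of the log2 fold change over the root of F, intervals are 1.96 SE either way, and CPM use TMM-scaled library sizes, except that marker sums and floors use total counts. The fit was tested on simulated data. The 16 pairs of libraries within a group differed by a chi-square of 2.30 to 5.32 per degree of freedom, above counting error. Each library was taken as a sample of its own, although this check cannot tell separate cultures from separate preparations of a single culture. Same-numbered libraries were not treated as pairs: the correlation of their deviations from the group means was 0.01 to 0.07, under the limit of 0.1.

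The members and lists were chosen with earlier results of these data known. Values in every library are given for the large catalytic subunits, Polrmt, Polr3g, Polr3gl, members that passed with a log2 fold change of at least 0.5 in size and the 3 with the smallest adjusted p. Of each companion list up to 3 passing genes with the smallest adjusted p and the most abundant that did not pass are named, and others are marked as picked later. Alternatives were RLE scaling, DESeq2 1.42.0, other filters, TMM from genes off chromosomes 6, 8 and Y and the mitochondrial genome, each library left out, and a replicate block. A single member is counted in totals, sums and medians, and its own values are not reported here.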

Additional observations from a re-analysis of the deposited data

Results flagged for a closer look

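In 74 sets of libraries examined (29 genes, 5 class sums, the Polr3g share, Klf2 and Klf4, each in both groups), 4 held a library far from the others by Dixon's ratio of gap to range. Chance flags about 1 in 20 such sets. Polr3g stood at 81.2 CPM in DKO 3, against 63.7 to 67.7 CPM in the other libraries labelled DKO, and remained below every WT library. Polr3c was at 14.5 CPM in DKO 4, with 18.2 to 19.6 CPM in the others. Polr2h was at 157 CPM in WT 3, with 171 to 172 CPM in the other WT libraries. Klf4 was at 775 CPM in WT 2, with 863 to 878 CPM in the others.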

How the results depend on the processing

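Depth limited Polr2k, Polr2l and Polr3gl most, at 11 to 59 counts per library. Scaling moved the median of all genes by less than 0.1. Over the 15 planned fits the falls among the 29 genes numbered 9 to 13 and kept within 1.5 times the main count, and with each library left out the rises numbered 0 (without DKO 5, WT 2 or WT 4) to 1. The median log2 fold change of the common subunits, -0.14, was -0.27 to 0.0040 with a library left out and -0.25 with the replicate block (5 genes, so the middle value decides), and the cause was not tested. Some genes that did not pass changed sign when a library was left out: Polr1d ranged from -0.079 to 0.019, Polr2g from -0.067 to 0.011, Polr2m from -0.018 to 0.056, Polr2f from -0.038 to 0.017, Polr2k from -0.37 to 0.015, Twistnb from -0.045 to 0.015 and Ubtf from -0.023 to 0.019. In fits with the replicate number as a block on replicates 1 to 4, 1 member rose and 11 fell, all 12 the same genes as in the main result, and 2699 genes of all rose and 2798 fell. The block changed no call among the 29. Every library labelled DKO among 4 correlated best with its own number, and 3 of 4 WT libraries did, a hint from the data and not the design. Other gene choices for the sums, made after the data were seen, gave 58.4 and 74.9 CPM for polymerase I without Polr1a, 498 and 572 CPM with Cd3eap, Twistnb and Znrd1, 1193 and 1226 CPM for polymerase II without Polr2c and 374 and 418 CPM for polymerase III without Polr3g, in the libraries labelled DKO and in WT.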
